A study of Rattus norvegicus with 12 samples.

Results

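Cyp1b1, the gene of a cytochrome P450 that oxidizes steroid hormones and polycyclic aromatic hydrocarbons, is described here with 5 genes of the aryl hydrocarbon receptor pathway in rat heart muscle cells: Cyp1a1, Ahr, Ahrr, Arnt and Tiparp. The 6 genes were taken by symbol from the 32883 genes of the count table, and all 6 were among the 14063 that passed the filter on low counts. Their identifiers in the table are ENSRNOG00000040287 (Cyp1b1), ENSRNOG00000019500 (Cyp1a1), ENSRNOG00000004342 (Ahr), ENSRNOG00000014721 (Ahrr), ENSRNOG00000031174 (Arnt) and ENSRNOG00000011238 (Tiparp). Cyp1b1 was chosen by its counts, because its level was low in the WT libraries. Its levels are therefore given as a description with no test, while the other 5 genes were tested. The cells were ventricular cardiomyocytes prepared from neonatal rats and kept in primary culture, and each of the 4 groups had 3 libraries. All 4 groups received an adenovirus for 2 days. It carried LacZ, a bacterial enzyme gene used as the control, or KAT6A, a histone acetyltransferase, as WT or with 1 lysine replaced by arginine (K815R) or by glutamine (K815Q). Arginine cannot be acetylated and glutamine is often used to imitate acetylated lysine. No group was left without virus, so effects of the virus that all groups share cannot be told apart from the untreated state.

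The aryl hydrocarbon receptor, encoded by Ahr, is a ligand-activated transcription factor that waits in the cytoplasm in a complex with HSP90 and p23. On binding dioxins, polycyclic aromatic hydrocarbons or tryptophan metabolites it enters the nucleus, pairs with ARNT and binds DNA elements with the core GCGTG. Cyp1a1, Cyp1b1, Ahrr and Tiparp are among its best known target genes. The protein from Ahrr competes with the receptor for ARNT, and TIPARP modifies the receptor with ADP-ribose, so both act as feedback repressors. ARNT is also the partner of the hypoxia-inducible factors. In the heart Cyp1b1 is known for oxidizing arachidonic acid to midchain hydroxylated products, and much of it is found in cells that are not myocytes.

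The stretches upstream of 3 target genes and of Nqo1, a further receptor target whose level rose with WT, are printed because they hold the receptor core in differing number. Each runs for 250 bases up to the annotated start, in RefSeq's GRCr8 assembly, 5′ to 3′ on the strand of the gene, and capitals mark GCGTG or, for a match on the other strand, CACGC. Cyp1b1 lies at chr6:21094315-21094564 on the plus strand, Ahrr at chr1:30821969-30822218 on the plus strand, Tiparp at chr2:152063519-152063768 on the plus strand and Nqo1 at chr19:52220268-52220517 on the minus strand.
Cyp1b1: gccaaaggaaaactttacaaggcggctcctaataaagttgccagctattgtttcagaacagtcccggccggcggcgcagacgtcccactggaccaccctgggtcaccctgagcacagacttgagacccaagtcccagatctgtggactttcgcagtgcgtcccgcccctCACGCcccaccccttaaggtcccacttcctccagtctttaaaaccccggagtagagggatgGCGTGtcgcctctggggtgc
Ahrr: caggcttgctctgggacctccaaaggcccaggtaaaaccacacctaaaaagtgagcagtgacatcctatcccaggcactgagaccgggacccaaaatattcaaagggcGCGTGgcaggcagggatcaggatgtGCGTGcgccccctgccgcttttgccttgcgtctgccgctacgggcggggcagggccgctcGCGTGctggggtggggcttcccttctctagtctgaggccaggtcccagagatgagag
Tiparp: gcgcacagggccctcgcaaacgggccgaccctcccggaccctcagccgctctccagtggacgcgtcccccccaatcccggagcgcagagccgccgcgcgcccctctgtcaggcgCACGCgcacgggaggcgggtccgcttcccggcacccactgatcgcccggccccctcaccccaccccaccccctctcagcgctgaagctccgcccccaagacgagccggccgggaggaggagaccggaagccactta
Nqo1: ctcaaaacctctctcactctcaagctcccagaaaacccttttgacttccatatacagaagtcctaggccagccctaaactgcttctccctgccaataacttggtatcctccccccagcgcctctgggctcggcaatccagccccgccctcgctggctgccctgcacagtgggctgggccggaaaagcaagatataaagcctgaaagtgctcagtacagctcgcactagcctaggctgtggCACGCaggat

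Searched on both strands, GCGTG occurred 2 times upstream of Cyp1b1, 3 times upstream of Ahrr and 1 time each upstream of Tiparp, Nqo1 and Arnt, with no match upstream of Ahr. Among 33469 RefSeq promoters of this length, 25.9% held at least 1 such core and 8.12% held 2 or more. The longer element TNGCGTG, which contains the core, was found 1 time for Cyp1b1, from 22 to 16 bases before its start, and 1 time for Ahrr, from 59 to 53 bases before its start. It occurred in 4.09% of the promoters. GCGTG is also a form of the core bound by hypoxia-inducible factors with ARNT, so the letters are shared by both. Of the 6 genes, 5 had an entry in the RefSeq table. A match describes the letters only.

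Each library held 19102048 to 25451686 reads assigned to genes, and 18037 to 18338 genes had at least 1 read. A count of 3 corresponded to 0.118 to 0.156 CPM (counts per 1000000 counts of the library, with totals corrected by trimmed means of M values). Kat6a averaged 48.1 CPM with LacZ, 93.0 with WT and 108 with K815R, against 46.3 in the K815Q-labelled libraries. The last group thus lacked the raised Kat6a reads of the other KAT6A groups, and it is called by its label throughout. Prkaa2, which encodes a catalytic subunit of the AMP-activated kinase, averaged 60.9 CPM with LacZ, 519 with WT, 87.2 with K815R and 1168 in the K815Q-labelled libraries. It was higher than with LacZ in WT (log2 fold change 3.09, adjusted p = 2.51e-05) and in the K815Q-labelled libraries (4.26, adjusted p = 4.06e-06). Its part in the levels of the 6 genes was not tested. Summed cardiomyocyte markers came to 27450 to 28130 CPM with LacZ, below all other libraries, and no library lacked them. The sums were 29350 to 29670 CPM with WT, 28210 to 29030 with K815R and 28300 to 29740 in the K815Q-labelled libraries. Against LacZ, 0 of the 7 markers had a negative fold change in WT, 1 in K815R and 3 in the K815Q-labelled libraries. Pln, of this list, was called higher than with LacZ in WT (0.22, adjusted p = 0.0119), beside 1.95% of all genes. It was also called higher in the K815Q-labelled libraries (0.24, adjusted p = 0.00634, both by the quasi-likelihood test of edgeR), beside 2.87%. Each call was kept in 4 of 6 fits without 1 library. The part of cardiomyocyte content in the levels of the 6 genes was not tested. Nothing in the labels states that replicates came from separate preparations, so p-values measure only the spread between these libraries, which may be technical.

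Cyp1b1 stood at 96.78, 96.66 and 100.6 CPM with LacZ. In WT its level was 66.89, 69.72 and 65.01 CPM. It was 96.17, 94.24 and 95.77 CPM with K815R and 122.3, 116.8 and 101.1 CPM in the K815Q-labelled libraries. The 3 WT libraries were therefore below all 9 others, and the 3 K815Q-labelled ones were above all 9 others, the last by a margin of 101.1 against 100.6 CPM. These values rest on 1319 to 2454 reads per library.

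As group means, Cyp1b1 was 98.0 ± 2.22 CPM (SD, n = 3) with LacZ, 67.2 ± 2.37 with WT, 95.4 ± 1.02 with K815R and 113 ± 11.0 in the K815Q-labelled libraries. The log2 fold change was −0.54 (SE 0.0588) for WT against LacZ, a change of −31.4%. K815R against LacZ gave −0.04 (SE 0.0575), smaller than its SE, and the highest K815R value, 96.17 CPM, was just under the lowest LacZ value, 96.66. K815R against WT gave 0.51 (SE 0.059). The K815Q-labelled libraries gave 0.76 (SE 0.059) against WT and 0.21 (SE 0.0574) against LacZ. In order of mean level the groups ran from WT through K815R and LacZ to the K815Q-labelled libraries, which had the widest spread.

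**Figure D1:**
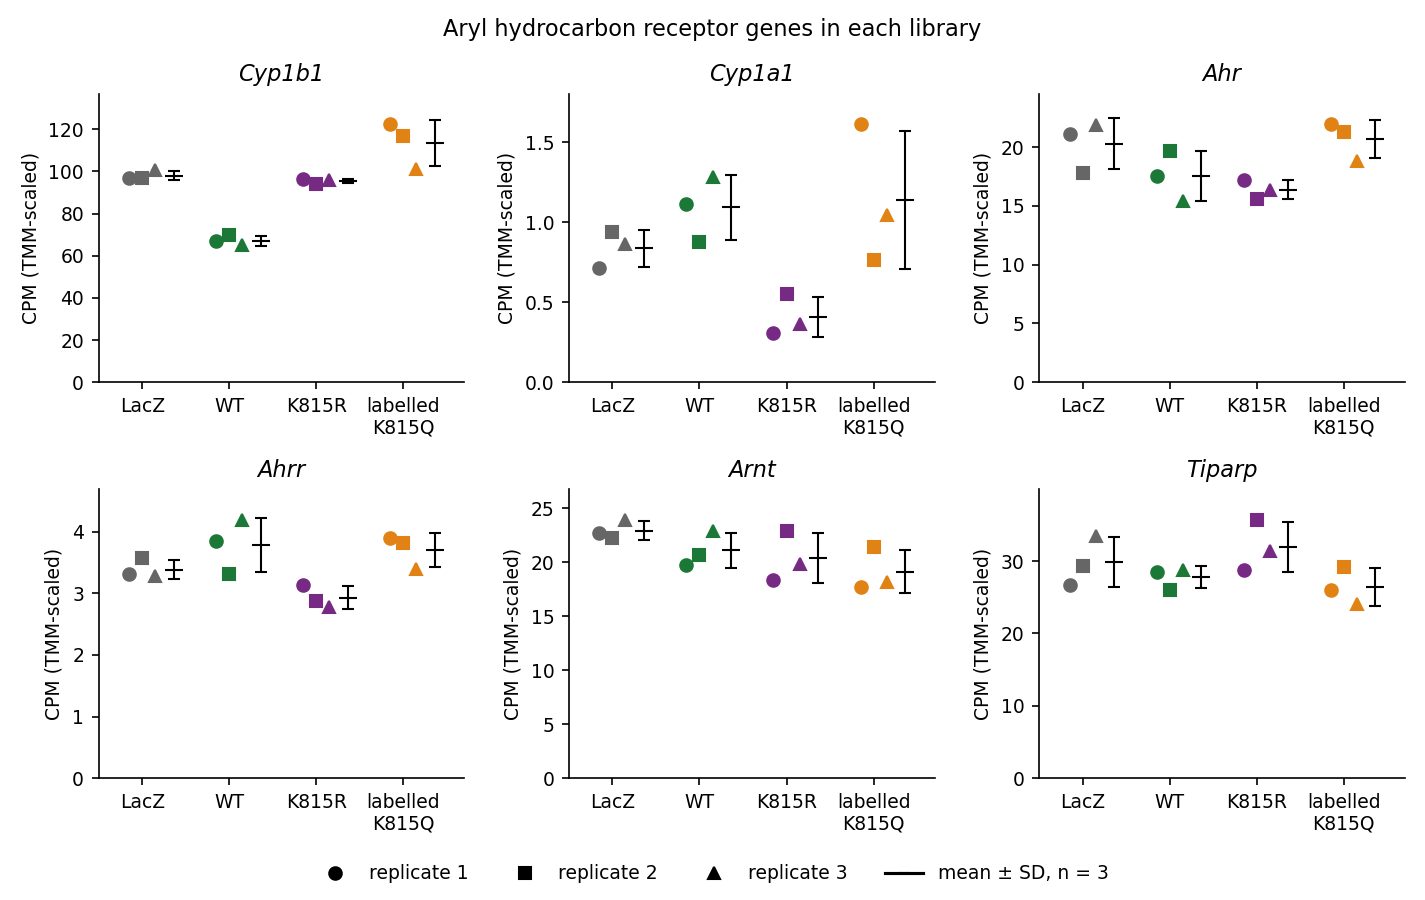
Level in CPM (vertical axes, linear from 0, each gene on its own scale) of the 6 genes in the 12 libraries by group, with symbols for replicates and bars for the mean and SD of 3 libraries. The WT libraries are lowest for Cyp1b1 at 65.01 to 69.72 CPM, and the K815R libraries are lowest for Cyp1a1 at 0.3091 to 0.5518 CPM.

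Low values with WT were not peculiar to Cyp1b1. Of the 14063 genes, 274 (1.95%) had all 3 WT libraries below the other 9, and 195 (1.39%) had all 3 K815Q-labelled libraries above the other 9. Among the 225 of the WT-low genes that averaged at least 5 CPM, Cyp1b1 ranked 7 by its ratio of WT to the others, 0.657. The gene just ahead of it in that order was Fst, which encodes the activin-binding protein follistatin, at 0.631, and the gene just behind was Id4, an inhibitor of helix-loop-helix factors, at 0.659. Values for these genes were chosen by the same pattern and are descriptive.

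Cyp1b1 is abundant in fibroblasts, and in bulk RNA fewer cells of a type and less RNA per cell cannot be told apart. All 9 fibroblast markers were detected, with a summed level of 11860 to 12730 CPM with LacZ, 11000 to 12060 with WT, 11110 to 11550 with K815R and 11960 to 12850 in the K815Q-labelled libraries. Most of that sum was Col1a1 (8256 CPM with LacZ, 7378 with WT) and Col3a1 (3088 and 3142 CPM), collagen genes, so it says little of the other markers. As a percentage of the sum, Cyp1b1 was 0.578% to 0.604% with WT, against 0.760% to 0.848% with LacZ, 0.833% to 0.855% with K815R and 0.846% to 0.992% in the K815Q-labelled libraries.

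Single fibroblast markers moved in both directions. Pdgfra, a growth factor receptor of fibroblasts, was 61.2 ± 1.51 CPM with LacZ, 47.7 ± 0.504 with WT, 69.2 ± 6.27 with K815R and 58.7 ± 3.80 in the K815Q-labelled libraries. It fell in WT against LacZ (log2 fold change −0.36, adjusted p = 0.00109) and exceeded its WT level with K815R (0.54, adjusted p = 7.62e-05; quasi-likelihood test of edgeR, Benjamini-Hochberg adjusted). It was also above WT in the K815Q-labelled libraries (0.30, adjusted p = 0.0189), a call lost without any 1 of the WT replicates or K815Q-labelled replicate 1 or 2 (0.25 to 0.34 over the 6 such fits). Pdgfra was thus called lower with WT in all 3 comparisons, where Cyp1b1 was also low. Postn, a matrix gene of activated fibroblasts, went the other way, with 0.35 for WT against LacZ (adjusted p = 0.00104) and −0.36 for K815R against WT (adjusted p = 0.00226). The other 7 fibroblast markers passed the test in neither of these comparisons. In the K815Q-labelled libraries against LacZ 2 of the 9 were called higher, beside 2.87% of all genes. They were Tcf21 (0.53, adjusted p = 0.00236), kept in all 6 fits without 1 library, and Postn (0.20, adjusted p = 0.0421), kept in 1 of 6. The part of these cells in the Cyp1b1 pattern was not tested.

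Markers of other cells that such cultures can hold gave the following sums. Smooth muscle and pericyte markers summed to 4041 to 4609 CPM and endothelial markers to 145.3 to 216.7 CPM over all 12 libraries. Epicardial markers summed to 33.1 to 34.57 CPM with K815R, 34.48 to 39.85 with WT and 36.1 to 40.56 CPM with LacZ and the K815Q label. In K815R against LacZ 4 of these 5 markers had a negative fold change, while Wt1 went the other way (0.35, adjusted p = 0.216). Upk1b was called lower there (−0.42, adjusted p = 0.0392), beside 1.74% of all genes, a call kept in 1 of 6 fits without 1 library. Macrophage markers summed to 46.48 to 61.5 CPM with LacZ and to 60.6 to 68.66 CPM in the other groups. Adgre1 went against that sum, called lower in the K815Q-labelled libraries against LacZ (−0.54, adjusted p = 0.0356), beside 4.98% of all genes. Pdgfrb, of the pericyte list, was called higher there (0.21, adjusted p = 0.041), beside 2.87%. Of 6 fits without 1 library, 0 kept the call of Adgre1 and 1 kept that of Pdgfrb. The call of Adgre1 was also lost with DESeq2. No defining marker of these lists was at 0 in all libraries, and their part in the levels of the 6 genes was not tested.

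Cyp1a1 encodes the P450 most strongly induced by receptor ligands, and it was the only one of the 5 tested genes called in any pairwise comparison. Its counts were 17, 21 and 21 reads with LacZ, 22, 17 and 27 with WT, 6, 14 and 8 with K815R, and 31, 15 and 20 in the K815Q-labelled libraries. In CPM these were 0.7122, 0.9359 and 0.8606 with LacZ, 1.116, 0.8786 and 1.283 with WT, 0.3091, 0.5518 and 0.3633 with K815R, and 1.611, 0.7617 and 1.042 in the K815Q-labelled libraries. The 3 K815R libraries were below all 9 others, an arrangement seen in 0.704% of the tested genes. The other 3 groups overlapped one another.

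Cyp1a1 averaged 0.408 ± 0.127 CPM (SD, n = 3) with K815R and 1.09 ± 0.203 with WT, a log2 fold change of −1.38 (SE 0.33, 95% interval −2.06 to −0.70, adjusted p = 0.0284 in the quasi-likelihood test of edgeR, Benjamini-Hochberg adjusted), or −61.6%. In that comparison 2.2% of all tested genes were called and 0.882% were called lower. Against LacZ, at 0.836 ± 0.114 CPM, K815R gave −0.99 (SE 0.338, 95% interval −1.69 to −0.29, adjusted p = 0.148), and against the K815Q-labelled libraries, at 1.14 ± 0.433 CPM, −1.43 (SE 0.33, 95% interval −2.12 to −0.75, adjusted p = 0.0572). Neither passed the threshold of 0.05, although the second did without K815Q-labelled replicate 2 (−1.66, adjusted p = 0.0221). WT against LacZ gave 0.39 (adjusted p = 0.508), and the K815Q-labelled libraries gave 0.44 against LacZ (adjusted p = 0.359) and 0.05 against WT (adjusted p = 0.957).

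The Cyp1a1 call for K815R against WT was lost without WT replicate 1 (adjusted p = 0.084), WT replicate 3 (0.125), K815R replicate 1 (0.122) or K815R replicate 3 (0.113), with log2 fold changes between −1.68 and −1.23 over the 6 such fits. DESeq2 gave no adjusted p for Cyp1a1 in that comparison. Tested over all 4 groups at once, for a difference of any kind, Cyp1a1 had an adjusted p of 0.0213, lost without K815R replicate 1 (0.0851) or K815R replicate 3 (0.0887). By that test 8.13% of all genes were called.

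The receptor gene itself, Ahr, stood at 21.16, 17.83 and 21.92 CPM with LacZ and at 17.55, 19.64 and 15.40 CPM with WT. It was at 17.20, 15.61 and 16.35 CPM with K815R and at 21.94, 21.28 and 18.86 CPM in the K815Q-labelled libraries. K815R was thus below LacZ and below the K815Q-labelled libraries with no overlap, arrangements found for 9.6% and 7.69% of all tested genes, and it overlapped WT. The means were 20.3 ± 2.18 CPM with LacZ, 17.5 ± 2.12 with WT, 16.4 ± 0.799 with K815R and 20.7 ± 1.62 in the K815Q-labelled libraries (SD, n = 3).

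No pairwise comparison of Ahr passed the threshold. The nearest was K815R against LacZ, with a log2 fold change of −0.31 (SE 0.0922, 95% interval −0.50 to −0.12, adjusted p = 0.076), in a comparison where 2.47% of all tested genes were called. Without LacZ replicate 2 it passed, at −0.40 (adjusted p = 0.0377). K815R against the K815Q-labelled libraries gave −0.34 (SE 0.0937, adjusted p = 0.127), where 0.363% of genes were called. WT against LacZ gave −0.22 (adjusted p = 0.193), the K815Q-labelled libraries against WT 0.24 (adjusted p = 0.229), K815R against WT −0.10 (adjusted p = 0.732) and the K815Q-labelled libraries against LacZ 0.03 (adjusted p = 0.897). The test for any difference gave an adjusted p of 0.0415 for Ahr, and it was kept in only 3 of the 12 fits that each left out 1 library. It was lost without LacZ replicate 1 (0.0773) or 3 (0.0865), WT replicate 1 (0.0689) or 3 (0.0557), K815R replicate 1 (0.0548), 2 (0.0882) or 3 (0.0949), or K815Q-labelled replicate 1 (0.109) or 2 (0.0748).

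Arnt, the dimerization partner, stood at 22.71, 22.19 and 23.85 CPM with LacZ and at 19.68, 20.67 and 22.86 CPM with WT. It was at 18.34, 22.90 and 19.84 CPM with K815R and at 17.73, 21.38 and 18.18 CPM in the K815Q-labelled libraries. The K815Q-labelled libraries lay below LacZ without overlap, as they did for 14.5% of all tested genes, and every other pair of groups overlapped. That comparison gave a log2 fold change of −0.26 (SE 0.0878, 95% interval −0.44 to −0.08, adjusted p = 0.0666), where 7.85% of all genes were called. Without K815Q-labelled replicate 2 it passed, at −0.35 (adjusted p = 0.0264). Arnt passed in none of the other 5 comparisons, whose adjusted p ran from 0.412 to 0.887, nor in the test for any difference (adjusted p = 0.194).

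Of the repressors, Ahrr was also lowest with K815R. It stood at 3.310, 3.565 and 3.278 CPM with LacZ, 3.854, 3.308 and 4.182 with WT, 3.142, 2.877 and 2.770 with K815R, and 3.899, 3.809 and 3.387 in the K815Q-labelled libraries. All 3 K815R libraries were again below the other 9, with 3.142 against 3.278 CPM at the boundary, an arrangement seen in 0.704% of tested genes. Even so no comparison passed, with −0.37 for K815R against WT (SE 0.14, adjusted p = 0.202), −0.34 against the K815Q-labelled libraries (SE 0.141, adjusted p = 0.362) and −0.21 against LacZ (SE 0.139, adjusted p = 0.553). The test for any difference gave an adjusted p of 0.219.

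Tiparp stood at 26.69, 29.37 and 33.52 CPM with LacZ, 28.50, 26.05 and 28.84 with WT, 28.80, 35.63 and 31.47 with K815R, and 26.04, 29.20 and 24.02 in the K815Q-labelled libraries. Every pair of groups overlapped. The largest difference was K815R against the K815Q-labelled libraries, 0.28 (SE 0.0921, 95% interval 0.09 to 0.47, adjusted p = 0.221). In sign it was opposite to the difference of Cyp1b1, Cyp1a1, Ahr and Ahrr in the same comparison.

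**Figure D2:**
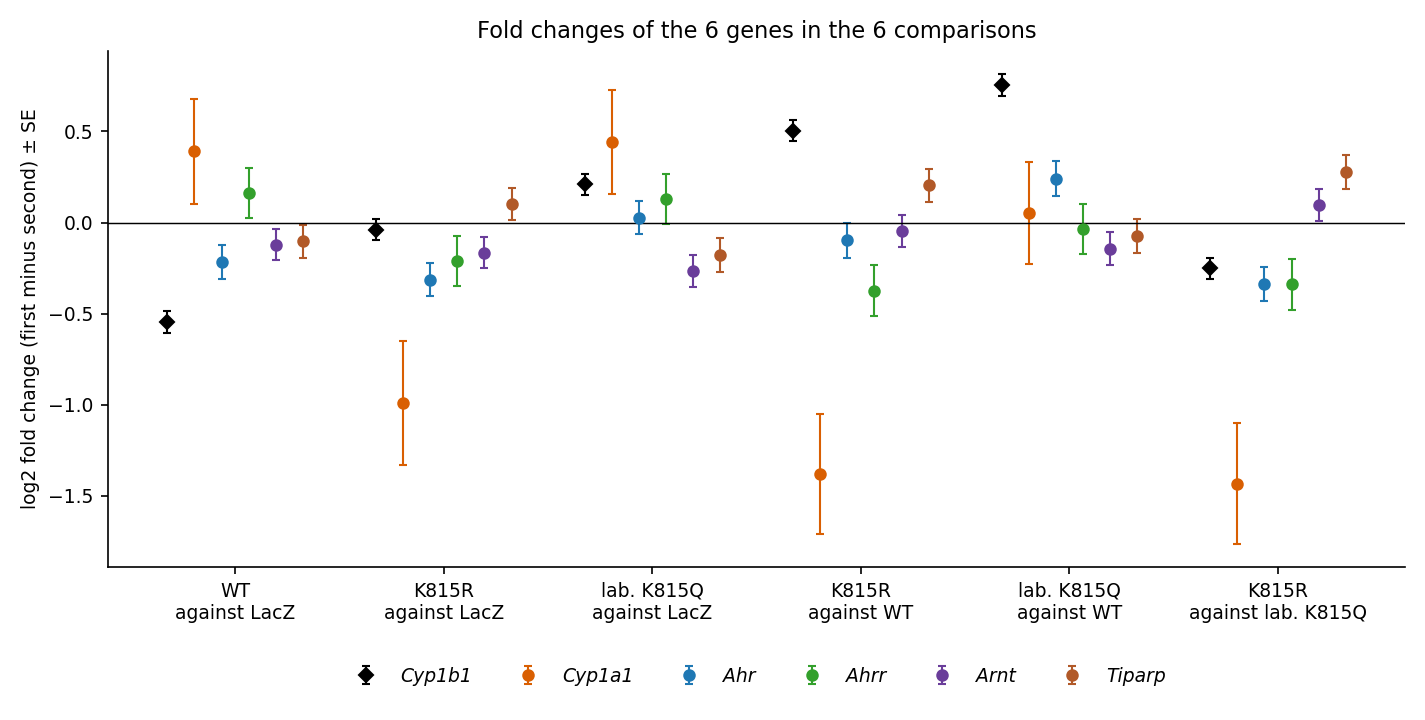
Log2 fold change (vertical axis, first group minus second) with its SE for the 6 genes in the 6 comparisons, where the black diamonds of Cyp1b1 carry no test and "lab." marks the K815Q-labelled libraries. Cyp1a1 sits between −0.99 and −1.43 wherever K815R is the first group, while Cyp1b1 departs most in the 3 comparisons that include WT.

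Set side by side, the P450 genes did not share an order of group means. Cyp1b1 was lowest with WT, and Cyp1a1, at only 6 to 31 reads a library, was lowest with K815R. In K815R against WT the log2 fold changes were 0.51 for Cyp1b1 and −1.38 for Cyp1a1, and in WT against LacZ they were −0.54 and 0.39. Over the 12 libraries the Pearson correlation of log2 CPM was −0.142 between Cyp1b1 and Cyp1a1 and −0.2 between Cyp1b1 and Ahrr, against 0.53 between Cyp1b1 and Ahr. After group means were removed these were 0.0578, 0.168 and 0.697, so neither negative sign was kept within groups. Cyp1a1 and Ahrr were the most closely related pair at 0.806, which was 0.313 after group means were removed. Arnt and Tiparp gave 0.593, and 0.741 after group means were removed. These describe 12 libraries that share their groups and scaling.

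Over the 5 tested genes and 6 comparisons, 1 of 30 tests was called with edgeR, and 12 had an unadjusted p under 0.05. The 6 comparisons share libraries, so these tests are not independent. The share of all genes under an unadjusted p of 0.05 is not given, so such counts, here and below, have no background. DESeq2 called 0 of the 27 tests for which it gave an adjusted p, and the Cyp1a1 test called by edgeR was not among them. The background in the comparisons not yet given was 5.34% of genes for WT against LacZ and 1.07% for the K815Q-labelled libraries against WT, and 0 of the 5 genes were called there, with 1 of 5 under an unadjusted p of 0.05 in each.

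Genes for HSP90 and p23, which hold the receptor in the cytoplasm, showed no called difference. Hsp90ab1, the constitutive HSP90, averaged 1352 CPM with LacZ, 1386 with WT, 1389 with K815R and 1374 in the K815Q-labelled libraries. Ptges3, which encodes p23, averaged 106.4 to 113.9 CPM over the groups. Hsp90aa1 was listed at only 1.22 to 1.33 CPM, a value that reads shared with near-identical copies could affect, since reads without a unique position were not counted. Across the 6 comparisons 0 of these 3 genes passed with edgeR, nor with DESeq2 where it gave an adjusted p, and 0 had an unadjusted p under 0.05. The smallest adjusted p was 0.429, for Ptges3 in WT against LacZ.

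Of 15 further receptor target genes in the table, 11 were tested. In WT against LacZ 1 was called higher, beside 1.95% of all genes, and 2 lower, beside 3.39%, with a median log2 fold change of −0.0315 beside 0.00868 over all genes. In K815R against LacZ 2 were called lower, beside 1.74% of all genes. In the K815Q-labelled libraries against LacZ 1 was called higher and 1 lower, beside 2.87% and 4.98%. Nqo1 was the 1 called, lower, for K815R against WT, beside 0.882% of all genes, and for the K815Q-labelled libraries against WT, beside 0.356%. Between K815R and the K815Q-labelled libraries 0 of 11 were called by edgeR and 0 of the 10 with an adjusted p by DESeq2, with 2 under an unadjusted p of 0.05. Slc7a5, Stc2, Ptgs2, Areg, Ereg and Cdkn1b were tested and called in no comparison. Cyp1a2, Aldh3a1, Gsta2 and Scin did not pass the filter, and Ugt1a6 was not analysed here.

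Nqo1, a quinone reductase whose gene is also driven by NRF2, stood apart with WT as Cyp1b1 did, but upward. It was 28.3 ± 1.33 CPM with LacZ, 44.8 ± 4.08 with WT, 26.4 ± 1.74 with K815R and 28.4 ± 2.80 in the K815Q-labelled libraries. The WT libraries, at 41.03 to 49.13 CPM, lay above all others, whose highest value was 30.93, as the WT libraries did for 1.92% of tested genes. Nqo1 rose in WT against LacZ (log2 fold change 0.66, SE 0.0774, adjusted p = 1.32e-05). Relative to WT it was lower with K815R (−0.76, adjusted p = 2.02e-05) and in the K815Q-labelled libraries (−0.66, adjusted p = 0.000103). Nfe2l2, which encodes NRF2, was 118.9 to 126.8 CPM over the groups and passed in no comparison.

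Xdh, the gene of xanthine dehydrogenase, fell in all 3 other groups against LacZ. It went from 14.9 ± 2.42 CPM to 10.3 ± 0.896 with WT (−0.53, adjusted p = 0.00482), 9.74 ± 0.934 with K815R (−0.62, adjusted p = 0.00257) and 9.70 ± 0.839 in the K815Q-labelled libraries (−0.62, adjusted p = 0.00143). Serpinb2, a plasminogen activator inhibitor, fell from 1.94 ± 0.791 CPM with LacZ to 0.963 ± 0.223 with WT (−0.998, adjusted p = 0.0489) and 0.721 ± 0.051 with K815R (−1.42, adjusted p = 0.011). The Serpinb2 call for WT was lost with DESeq2, with replicate number as a block and with only the 6 libraries compared. It was also lost without LacZ replicate 2 or 3 or any WT replicate (log2 fold changes −1.23 to −0.65). The call for K815R was lost without LacZ replicate 2 or K815R replicate 1 or 2 (−1.65 to −1.07). Hes1, a Notch-responsive repressor, rose in the K815Q-labelled libraries against LacZ, from 64.0 ± 2.78 to 89.4 ± 14.0 CPM (0.48, adjusted p = 0.00244).

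ARNT's hypoxia-inducible partners passed in no comparison, Hif1a averaging 109.0 to 114.2 CPM and Epas1 151.5 to 153.1 CPM over the groups. Of 12 tested genes of the wider receptor family 1 was called, in a comparison that called 7.85% of all genes. It was Npas2, a clock-related factor, with 0.36 in the K815Q-labelled libraries against LacZ (adjusted p = 0.0409). That call was lost with DESeq2, with only the 6 libraries compared and when any 1 of those 6 was left out.

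Among targets of the hypoxia-inducible factors, which also use ARNT, several differed between WT and K815R. Of 15 tested, 5 were called higher with K815R than with WT and 0 lower, where 1.32% of all genes were called higher. All 15 fold changes were positive, with a median log2 fold change of 0.293 beside −0.0031 over all genes. They were also all positive for K815R against the K815Q-labelled libraries (median 0.185 beside −0.000821). There edgeR called 0 and DESeq2 called 1, and 7 had an unadjusted p under 0.05. The K815Q-labelled libraries against WT gave 5 negative (median 0.0561), with 0 called by edgeR and 1 by DESeq2. Between WT and K815R, Adm, which encodes the vasodilator adrenomedullin, was 28.5 ± 2.80 CPM with WT and 40.9 ± 4.72 with K815R (0.52, adjusted p = 0.00544). Egln1, an oxygen-sensing prolyl hydroxylase, was 48.6 ± 2.22 and 60.3 ± 2.14 CPM (0.31, adjusted p = 0.00586). Slc2a1, the glucose transporter GLUT1, and P4ha1 and P4ha2, collagen prolyl hydroxylases, gave 0.32, 0.22 and 0.34 (adjusted p = 0.0146, 0.0206 and 0.0396).

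In WT against LacZ, 3 of the 15 were called lower, beside 3.39% of all genes: Adm at −0.64 (adjusted p = 0.000239), P4ha2 at −0.34 (0.0198) and P4ha1 at −0.20 (0.0161). In K815R against LacZ 0 were called by edgeR and 0 by DESeq2, 3 had an unadjusted p under 0.05, and the median was 0.0842. Fold changes were negative for 14 of the 15 in WT against LacZ (median −0.187). The K815Q-labelled libraries against LacZ also gave 14 negative (median −0.108). P4ha1 was the 1 called there (−0.17, adjusted p = 0.039), beside 4.98% of all genes called lower. That call was kept in 1 of the 6 fits without 1 library and lost with only the 6 libraries compared. The count of 5 fell to 2 without WT replicate 1, WT replicate 2, K815R replicate 1 or K815R replicate 2. The count of 3 fell to 1 without LacZ replicate 2, WT replicate 1 or WT replicate 2. In WT against LacZ, P4ha2 also lost its call without LacZ replicate 1 and with only the 6 libraries compared. Arnt itself gave −0.05 for K815R against WT and was not called.

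**Figure D3:**
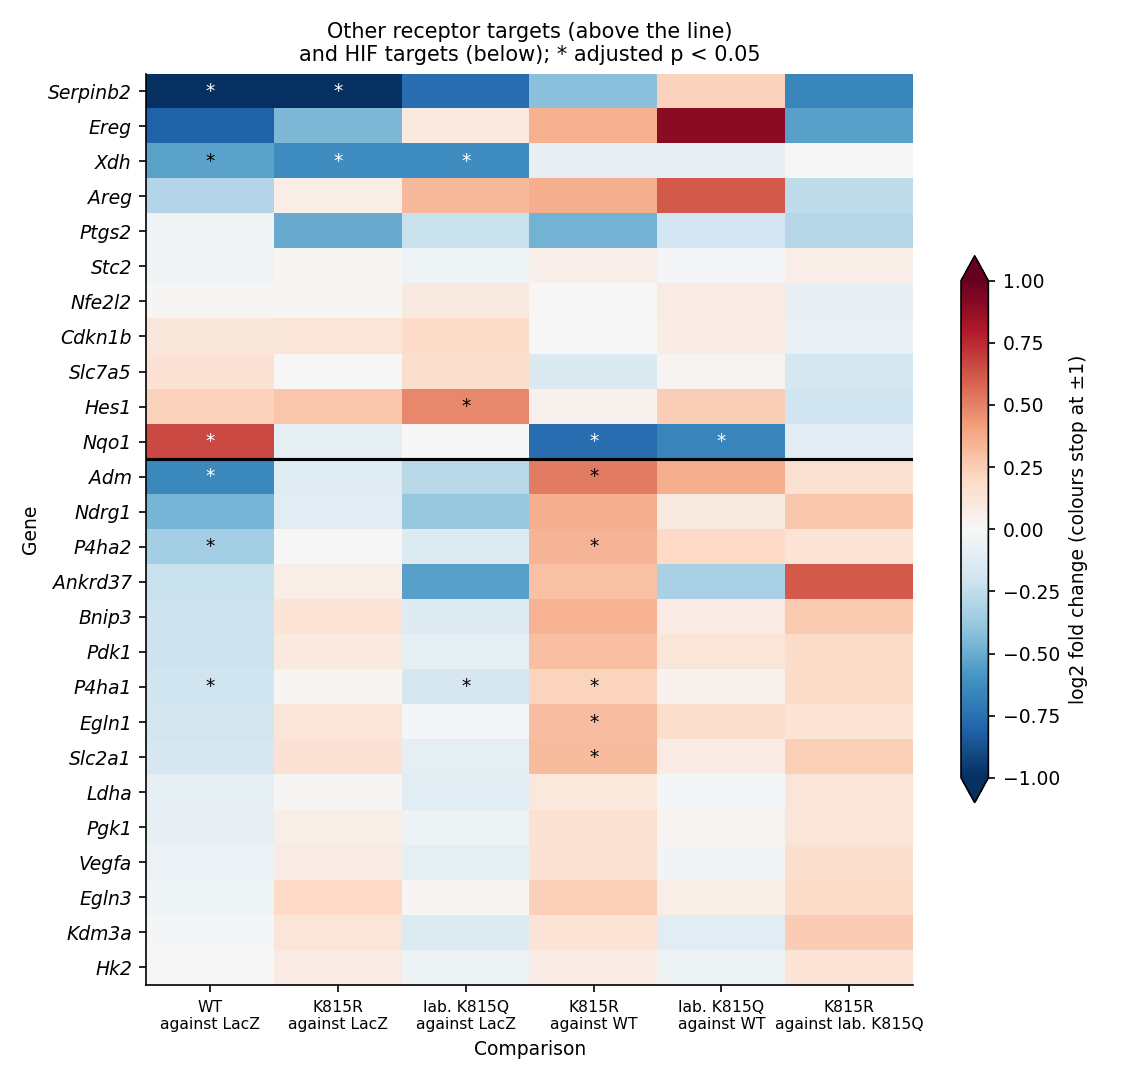
Log2 fold change (colour, red for higher and blue for lower in the first group, stopped at 1) of the 11 tested receptor targets outside the 6 genes and the 15 tested hypoxia-inducible factor targets (rows) in the 6 comparisons (columns), with a star for an adjusted p under 0.05. Nqo1 is starred in the 3 comparisons that include WT, and 5 genes below the line are starred in K815R against WT.

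Enzymes of the kynurenine pathway make some of the receptor's tryptophan-derived ligands. Of 11 genes of the pathway, 5 passed the filter (Il4i1, Afmid, Kyat1, Kyat3 and Aadat) and 0 of them were called in any comparison by edgeR or DESeq2. Of their 30 tests, 6 had an unadjusted p under 0.05. The smallest adjusted p was 0.183, for Kyat1 in WT against LacZ. Il4i1, an amino acid oxidase that yields receptor ligands, averaged 2.38 CPM with LacZ, 2.76 with WT, 3.07 with K815R and 3.10 in the K815Q-labelled libraries.

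Cyp1b1 belongs to a large gene family, of which 69 other members were in the table and 19 passed the filter. Cyp26b1, which degrades retinoic acid, was lower with WT than with LacZ (−0.60, adjusted p = 0.031), at 2.08 against 3.15 CPM. It was the 1 of 19 called there, beside 3.39% of all genes called lower. Cyp2j4, an arachidonic acid epoxygenase, was lower with K815R than with WT (−0.65, adjusted p = 0.0194), at 2.48 against 3.88 CPM. It too was the 1 of 19 called, beside 0.882% called lower. Both calls were lost with DESeq2. Of the libraries compared, leaving out any but LacZ replicate 1 ended the call of Cyp26b1 (−0.68 to −0.48), and any but K815R replicate 1 that of Cyp2j4 (−0.77 to −0.58). Por, the reductase that passes electrons to these enzymes, averaged 87.9 to 89.5 CPM over the 4 groups. Of 9 electron donors only Cyb5a was called, with 0.26 in the K815Q-labelled libraries against LacZ (adjusted p = 0.0365), where 2.87% of all genes were called higher. That call was lost with only the 6 libraries compared, and without LacZ replicate 2 or 3 or K815Q-labelled replicate 1 or 3.

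Tiparp is a member of the PARP family, and several of its relatives were called where it was not. Of 13 others tested, 5 were called lower in WT against LacZ, where 3.39% of all genes were called lower. In K815R against LacZ 5 were called lower, beside 1.74% of all genes, and in the K815Q-labelled libraries against LacZ 6, beside 4.98%. Parp9, Parp10, Parp12, Parp14 and Zc3hav1, genes known to be induced by interferon, were called in all 3 of these comparisons, which share the LacZ libraries. Parp9 fell from 97.9 CPM with LacZ to 36.9 with WT, 44.8 with K815R and 32.1 in the K815Q-labelled libraries, with log2 fold changes of −1.41, −1.13 and −1.61 (adjusted p = 0.00173, 0.00841 and 0.000855). Irf7, an interferon-induced factor, averaged 103 CPM with LacZ and 11.0 to 23.1 CPM in the other groups. For Tiparp the same comparisons gave −0.10, 0.10 and −0.18 (adjusted p = 0.6, 0.69 and 0.248).

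The genes most like Cyp1b1 were ranked by the Pearson correlation of log2 CPM over the 12 libraries, among 9987 genes averaging at least 5 CPM. Olr1, a receptor for oxidized low-density lipoprotein, came first at 0.958, with group means of 22.6 CPM with LacZ, 13.9 with WT, 20.8 with K815R and 23.6 in the K815Q-labelled libraries. It was the only one of the 10 whose correlation within groups reached 0.8. It was followed by Numbl (0.939), Nek6 (0.937), Dram1 (0.934), Prrx2 (0.929), Colec12 (0.92), Cfap45 (0.92), Nucb2 (0.914), Plpp1 (0.909) and Cebpb (0.908). Cebpb, an inflammatory transcription factor, averaged 92.9, 72.1, 89.3 and 107 CPM in the same order of groups. Prrx2, a mesenchymal homeobox factor, averaged 8.20, 5.79, 7.69 and 9.26 CPM. Within groups Cebpb and Prrx2 correlated with Cyp1b1 at only 0.0482 and −0.201, so their likeness lay in the group means. Dram1 and Colec12 kept 0.614 and 0.671 within groups.

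The 5 most opposed were Iars (−0.954), Nf2 (−0.928), Mre11a (−0.915), Slc19a1 (−0.888) and Trappc11 (−0.885), all highest with WT. Iars, an isoleucyl-tRNA synthetase, averaged 69.2 CPM with WT and 60.7 to 62.0 CPM in the other groups. Cyp1b1 itself changed more between LacZ and WT than 9 of its 10 nearest genes. Cyp1b1 was chosen for its low WT level and these genes by correlation with it, so their levels at WT are a description only.

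**Figure D4:**
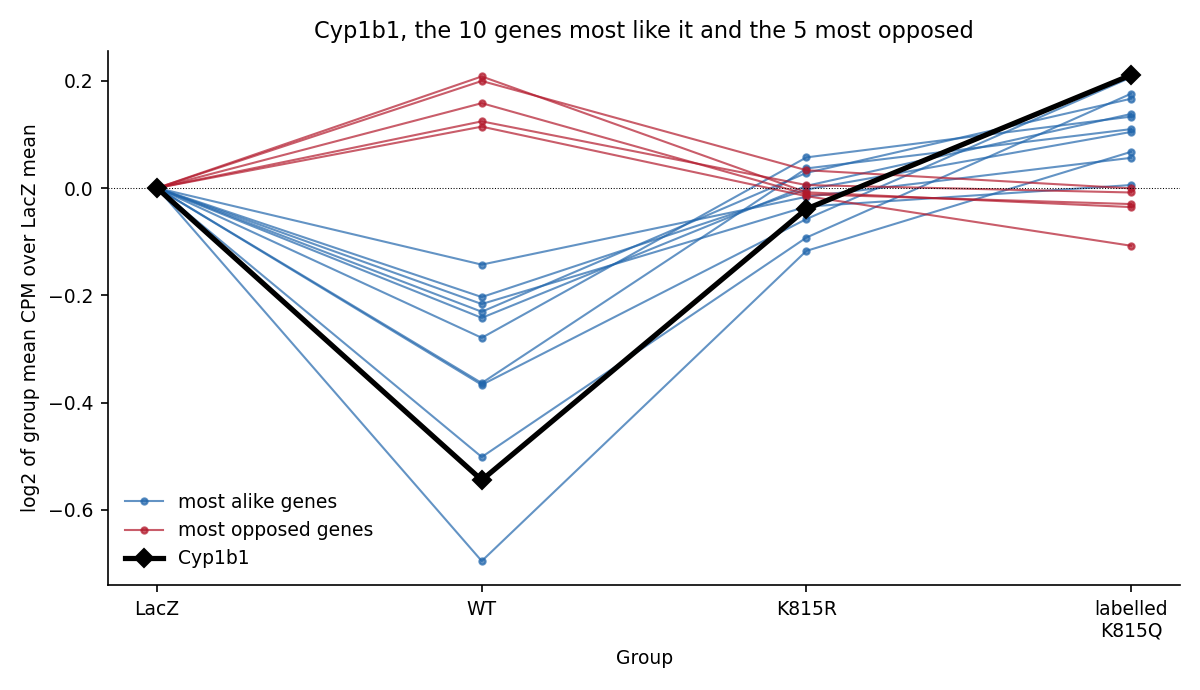
Log2 ratio of each group's mean CPM to the LacZ mean (vertical axis) over the 4 groups (horizontal axis) for Cyp1b1 (black), the 10 genes most correlated with it (blue) and the 5 most opposed (red). The blue lines dip at WT, deepest for Olr1, and the red lines peak there.

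For the other genes the nearest neighbours over the same 12 libraries differed from those of Cyp1b1. They were Mxd4 (0.876), Traf3ip2 (0.868) and Ctbs (0.865) for Cyp1a1, and Pkd2 (0.955), Fgl2 (0.945) and Srpx (0.922) for Ahr. Ahrr had Mtmr11 (0.829), Tmem44 (0.823) and Zfp868 (0.822). Arnt had Gpam (0.973), Il6st (0.958) and Sec23a (0.938), and Tiparp had Rnf13 (0.922), Chd1 (0.911) and Man1a2 (0.893). No correlation was computed as a test, since the neighbours were ranked on the same libraries.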

How the data were processed

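Single-end reads of 12 poly(A)-selected RNA libraries, made with a directional kit, underlie whole-number gene counts that the authors deposited in 1 table. Per the submitters' processing notes, Trimmomatic 0.39, HISAT2 2.2.1, HTSeq 0.6.1 and edgeR were used with Rnor 6.0; their settings, the annotation release and the strand option are not given in the sources used here. Counter lines (11.7% to 12.9% of reads in no feature, 25.6% to 26.9% not unique) were left out.

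Counts were scaled by trimmed means in edgeR 4.0.16 (R 4.3.3), giving CPM. Genes passed filterByExpr with a minimum count of 10 and total of 15. The quasi-likelihood test was fitted over all 12 libraries with 4 group means, and p-values were Benjamini-Hochberg adjusted over 14063 genes with a threshold of 0.05. The steps were tested on simulated data for WT against LacZ (13962 genes tested): 90 of 100 genes were recovered at an absolute log2 change of 1 and 93 of 100 at 1.5, with 14 false calls. Alternatives were other scalings, filters, DESeq2 1.42.0, a replicate block, only the libraries compared and leaving out each library. No 2 replicates agreed within sampling noise (chi-square per degree of freedom 4.539 to 8.744).

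The 6 genes and all lists were chosen with earlier results of these data known. Named were the 6 genes, tested genes of the chaperone, receptor target and kynurenine lists, called genes of other lists (up to 4 a comparison, by fold change; the fifth hypoxia-inducible factor target was named because the count was 5), and the nearest and most opposed genes by correlation. Zc3hav1, Hif1a, Epas1, Por, Col1a1 and Col3a1 were named outside that rule, and Kat6a, Prkaa2 and Irf7 to describe the groups. Id4, Fst and Wt1 were chosen after their values were seen. A listed gene among the chaperones is not reported here.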

Additional observations from a re-analysis of the deposited data

How the results depend on the processing

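For the 5 tested genes, 375 of 396 alternative log2 fold changes kept their direction and their side of the threshold, 4 lost a call, 9 gained one and 8 changed sign. With no filter on low counts (22491 genes tested in place of 14063) calls were gained for K815R against the K815Q-labelled libraries by Cyp1a1 (−1.43), Ahr (−0.34) and Tiparp (0.28), for K815R against LacZ by Ahr (−0.32) and for the K815Q-labelled libraries against LacZ by Arnt (−0.27), and Tiparp passed the test for any difference (adjusted p = 0.0142); the cause was not tested. The stricter filter did not test Cyp1a1, and DESeq2 gave it no adjusted p in K815R against WT. Leaving out all K815Q-labelled libraries, an alternative chosen after seeing the data, changed no call among the 6 genes. On raw library totals the Cyp1b1 mean in K815R was 94.2 CPM. Leaving out 1 library gave Cyp1a1 −1.68 to −1.23 for K815R against WT, −0.28 to 0.28 for the K815Q-labelled libraries against WT and −1.73 to −1.10 for K815R against them. Ahr ranged from −0.40 to −0.25 for K815R against LacZ and from −0.058 to 0.088 for the K815Q-labelled libraries against LacZ, Ahrr from −0.12 to 0.046 for the K815Q-labelled libraries against WT, and Arnt from −0.35 to −0.21 for the K815Q-labelled libraries against LacZ and from −0.14 to 0.023 for K815R against WT. The adjusted p for any difference ranged from 0.0112 to 0.0887 for Cyp1a1 and from 0.0234 to 0.109 for Ahr. Cyp1b1 ranged from −0.57 to −0.52 for WT against LacZ. Of the 10 genes most like Cyp1b1, 2 were among the 10 by Spearman's rho and 0 after group means were removed.

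Same-numbered libraries of different groups correlated at −0.127 to 0.122 in their deviations (1 of 18 pairs over 0.1) and others at −0.129 to 0.145, and 5 of 12 libraries correlated best with one of their own number, so the numbers were not taken to pair the samples. With the replicate block, Arnt in the K815Q-labelled libraries against LacZ gave −0.27 (adjusted p = 0.044), and no other call among the 6 genes changed. All genes called went from 151 to 232 for the K815Q-labelled libraries against WT and from 51 to 86 for K815R against them.

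Over all genes, no filter moved the count from 348 to 600 for K815R against LacZ, from 309 to 553 for K815R against WT, from 151 to 423 for the K815Q-labelled libraries against WT and from 51 to 307 for K815R against them. The last count was 101 with DESeq2 and 85 with only the 6 libraries compared. Without 1 library the counts were 378 to 639 for WT against LacZ (751 with all), 173 to 308 for K815R against LacZ, 360 to 1182 for the K815Q-labelled libraries against LacZ (1104 with all), 124 to 177 for K815R against WT, 50 to 146 for the K815Q-labelled libraries against WT and 11 to 98 for K815R against them. Depth limits Cyp1a1, with 6 to 31 reads a library.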
